A study of Mus musculus with 6 samples.

Results

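The STAT transcription factors examined here are the products of 6 mouse genes, Stat2, Stat3, Stat4, Stat5a, Stat5b and Stat6, taken by symbol from the 32285 genes that the single-nucleus RNA sequencing (snRNA-seq) tables list. UMIs, the molecular tags that count captured RNA molecules, were summed per library for each gene over the nuclei of 11 cell types that were named by marker genes. All retinas came from rd10 mice of the strain B6.CXB1-Pde6b-rd10/J, which carry a mutation in the rod phosphodiesterase gene Pde6b and lose their photoreceptors. At postnatal day 18 the eyes received either 20 ng of recombinant IL-27 or saline into the vitreous, and the retinas were frozen at postnatal day 20. There were 3 libraries per group, saline replicates 1, 2 and 6 and IL-27 replicates 4, 5 and 10. Every retina carries the rd10 mutation and had an injection, so neither of those can be separated from the values given here. The labels do not say whether a library was 1 retina or several, so the p-values measure the spread between libraries only.

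STAT proteins wait in the cytoplasm until a cytokine binds its receptor. Janus kinases (JAKs) on the receptor then phosphorylate them, they pair up, enter the nucleus and switch on target genes, among them the SOCS genes whose products shut the pathway down again. Which STAT is used depends on the receptor: STAT2 joins the DNA-binding partner IRF9 downstream of type I interferon, STAT3 follows receptors that contain gp130 (Il6st), including the IL-27 receptor, STAT4 follows IL-12, STAT5A and STAT5B follow growth hormone, prolactin and several interleukins, and STAT6 follows IL-4 and IL-13. The activity of a STAT lies in its phosphorylation, which RNA counts do not measure.

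The 6 libraries held 36678332 to 48260748 UMIs in 56634 barcodes, of which 52190 were retained, and 321 barcode sequences occurred in more than 1 library. The 11 types took 50463 nuclei, and 49580 of them entered the sums: 15018 rods, 3330 cones, 10346 bipolar cells (BC), 10734 amacrine cells (AC), 485 horizontal cells (HC), 2050 retinal ganglion cells (RGC), 1550 microglia, 5422 Muller glia, 237 endothelial cells, 114 pericytes and 294 astrocytes. Xist, the RNA that coats the inactive X chromosome, stood at 2047 and 2004 CPM (UMIs of a gene scaled to the same library total) in saline replicate 2 and IL-27 replicate 5 and under 1 CPM in the other 4 libraries. A Muller glia cluster led by Fbln1 made up 20% (replicate 1), 21.7% (replicate 2) and 11.2% (replicate 6) of saline Muller glia, against 1.49% (replicate 4), 0.718% (replicate 5) and 12.7% (replicate 10) with IL-27. The microglia cluster also held nuclei with T or NK cell markers, mainly in saline replicate 1 and IL-27 replicate 5.

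Stat5b, Stat5a and Stat3 lie side by side on chromosome 11 of the GRCm38 build (GENCODE M21 annotation), Stat5b at 100780731 to 100850724 on the minus strand, Stat5a at 100859351 to 100885169 on the plus strand and Stat3 at 100885098 to 100939540 on the minus strand. Stat5a and Stat3 end in each other and overlap by 72 bases on opposite strands. Stat6 lies on chromosome 10 at 127642986 to 127660957 and overlaps the oppositely oriented Nab2 by 40 bases. Stat2 lies on the same chromosome at 128270559 to 128292849 and overlaps no annotated gene. Stat4, on chromosome 1 at 51987148 to 52107189, is the longest with a span of 120.0 kb, and Gm28177 and Gm3940 lie within its limits. Whether the counting used strand is not given in the sources used here, so reads in these overlaps cannot be assigned with certainty. Stat5a and Stat5b are near copies of each other: their longest coding transcripts share an unbroken run of 324 bases and 8% of the 90-base words of Stat5a, whereas within the last 1000 bases, nearest to where a 3′ library captures RNA, the longest shared run was 9 bases.

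A pair of short DNA words known as STAT binding motifs was searched for in the 250 bases before each RefSeq start site of the members (GRCm38.p6). The first, TTCNNNGAA, reads the same on both strands and is the palindrome that STAT pairs bind; it was found before none of the 9 start sites of the 6 genes, against 7.02% of 32851 promoters. The second, GAAA, any 2 bases and GAAA, or on the other strand TTTC, any 2 bases and TTTC, is the core of the element bound by STAT2 with IRF9; it was found before the start site of Stat2 and before an internal start site of Stat4, against 2.98% of all promoters. The stretches are shown because the level of Stat2 followed that of interferon targets across the libraries (below), and the capitals mark the second word; both are written 5′ to 3′ on the plus strand.
Stat2, chr10:128270251-128270340, word 222 bases before the start site: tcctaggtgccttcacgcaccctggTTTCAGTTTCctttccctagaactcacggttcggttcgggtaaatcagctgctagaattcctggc
Stat4, chr1:52008118-52008207, word 97 bases before the internal start site: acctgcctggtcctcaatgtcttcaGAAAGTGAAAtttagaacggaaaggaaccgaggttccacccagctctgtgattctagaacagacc
A match to these letters is a description of the sequence and not a measured binding site.

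Over the sum of all named types the members fell into an abundant and a scarce group. Stat3 had 172 ± 20.0 CPM (SD, n = 6), Stat5b 109 ± 11.6 CPM and Stat2 106 ± 30.6 CPM. Stat5a had 5.80 ± 0.866 CPM, Stat6 4.87 ± 1.13 CPM and Stat4 1.57 ± 0.495 CPM, the last from 325 UMIs in all. Nuclear RNA is largely unspliced, so the levels of different genes were also set per kilobase of gene span. On that scale Stat2 came first with 4.75 ± 1.37 CPM per kb, followed by Stat3 with 3.17 ± 0.368, Stat5b with 1.56 ± 0.166, Stat6 with 0.271 ± 0.0626, Stat5a with 0.225 ± 0.0336 and Stat4 with 0.0130 ± 0.00413 CPM per kb.

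Each member had its own order of cell types. Stat2, the interferon-pathway member, was highest in microglia with 376 ± 84.1 CPM (SD, n = 6) and stood at 243 ± 130 CPM in pericytes, 228 ± 67.3 CPM in Muller glia, 222 ± 92.9 CPM in astrocytes and 171 ± 56.7 CPM in endothelial cells. The neurons had less: 104 ± 62.9 CPM in HCs, 92.0 ± 28.6 CPM in RGCs, 85.2 ± 30.2 CPM in BCs, 83.0 ± 28.3 CPM in ACs, 70.7 ± 19.4 CPM in cones and 61.7 ± 12.4 CPM in rods. Stat2 was thus 6.10-fold higher in microglia than in rods, and the glial and vascular types all had higher means than the neuronal types.

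Stat3, the gp130-pathway member, was the most even of the 6. It was highest in astrocytes with 372 ± 75.1 CPM and then in the photoreceptors, with 299 ± 52.9 CPM in rods and 246 ± 48.8 CPM in cones, rods above cones in 6 of 6 libraries. Pericytes, endothelial cells, microglia, Muller glia and BCs lay between 241 and 211 CPM. ACs (99.3 ± 10.6 CPM), RGCs (94.96 ± 11.1 CPM) and HCs (92.7 ± 16.4 CPM) formed a lower group, and BCs stood above ACs in 6 of 6 libraries. The range from astrocytes to HCs was 4.02-fold.

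Stat5b was highest in BCs with 216 ± 15.5 CPM, above microglia (172 ± 21.8 CPM) in 6 of 6 libraries, and cones followed with 141 ± 22.4 CPM. It stood at 117 CPM in endothelial cells, 114 CPM in pericytes, 101 CPM in astrocytes, 97.8 CPM in HCs, 89.2 CPM in RGCs, 76.9 CPM in ACs and 65.2 CPM in Muller glia. Rods came last with 15.3 ± 3.58 CPM. The 2 photoreceptor types therefore stood far apart for this gene: the cone libraries ranged from 104 to 169 CPM and the rod libraries from 10.4 to 21.5 CPM. Its near copy Stat5a was highest in microglia with 23.4 ± 9.35 CPM. It had 9.17 ± 1.66 CPM in Muller glia, 7.94 ± 1.13 CPM in BCs and 4.66 ± 0.994 CPM in ACs, BCs above ACs in 6 of 6 libraries. In HCs a single UMI of Stat5a was counted against 479 UMIs of Stat5b.

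Stat6, the IL-4 and IL-13 member, was highest in the non-neuronal types. It had 70.2 ± 17.0 CPM in pericytes (23 UMIs), 54.8 ± 5.10 CPM in microglia (215 UMIs), 29.9 ± 29.2 CPM in endothelial cells, 17.2 ± 9.10 CPM in astrocytes and 14.1 ± 2.62 CPM in Muller glia. Among neurons the RGCs stood out with 8.99 ± 2.59 CPM, below Muller glia and above cones (3.34 ± 1.68 CPM) in 6 of 6 libraries each. ACs had 1.68 ± 0.213 CPM, and rods, BCs and HCs had 0.710, 0.366 and 0.185 CPM, from 16, 18 and 1 UMIs. Stat4, the IL-12 member, was counted mainly in the microglia cluster, with 60.1 ± 29.9 CPM from 239 of its 325 UMIs. No other type had a mean over 4.62 CPM, and no UMI of Stat4 was counted in astrocytes or pericytes.

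**Figure D1:**
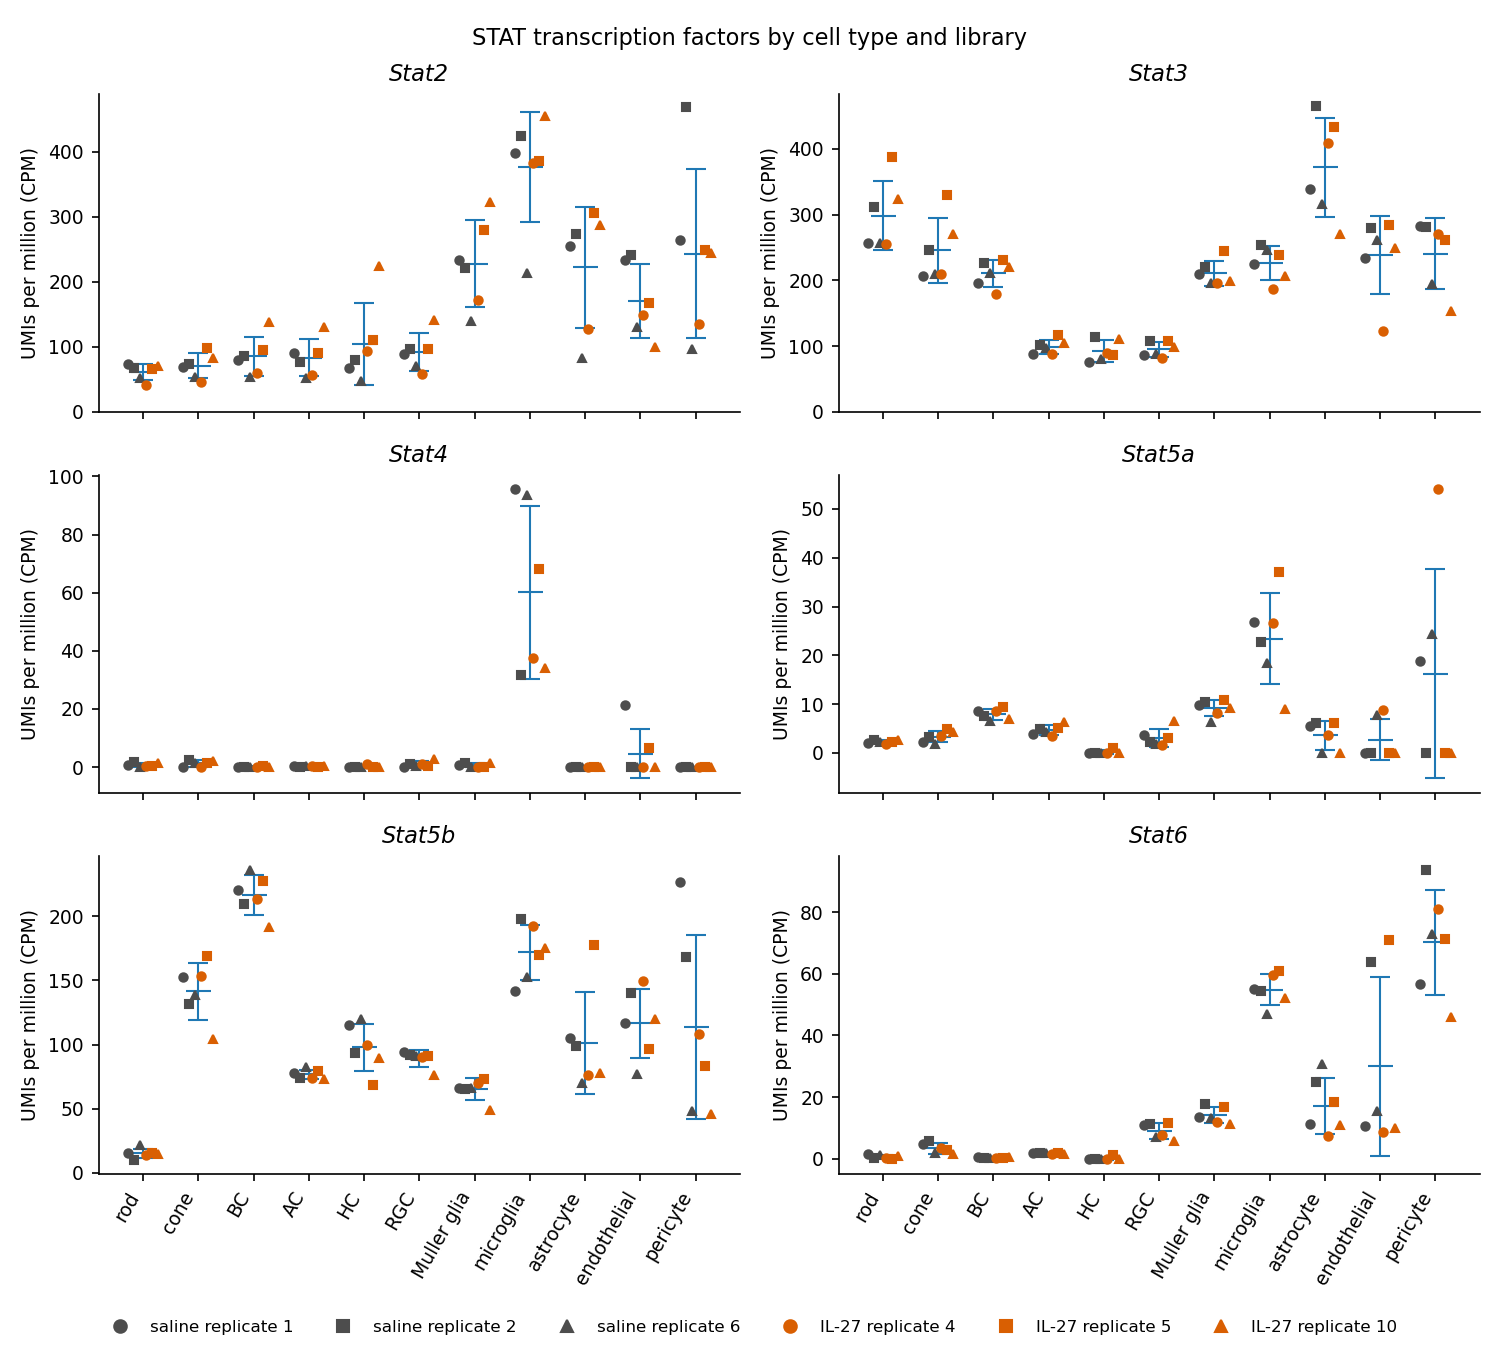
Level of each member in CPM (y axis, linear) in 11 cell types (x axis), with 1 point per library in grey for saline and orange for IL-27 and a blue mean ± SD over the 6 libraries. Stat2 is highest in microglia (376 ± 84.1 CPM), Stat5b in BCs (216 ± 15.5 CPM), and Stat4 has 60.1 ± 29.9 CPM in the microglia cluster and at most 4.62 CPM elsewhere.

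Neighbouring types in these orders were compared within libraries by a two-sided exact sign-flip permutation test of log2(CPM + 1). Of 60 neighbour pairs, 12 differed in the same direction in 6 of 6 libraries, each with p = 0.0312 (exact), the smallest value 6 libraries allow. After adjustment over the 60 pairs their adjusted p was 0.156 (exact permutation test), so no single step in the orders passed 0.05. With that smallest value, any step could pass only if far more of the 60 pairs had differed in 6 of 6 libraries. The neighbours were also ranked by the same values. This test therefore cannot decide which steps hold. Pericytes, endothelial cells and astrocytes gave few UMIs, 85, 111 and 246 of Stat2 for example, and their places in the orders are accordingly loose.

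As shares of nuclei, which depend on depth, Stat2 was detected in 48.1% of microglia (95% exact Clopper-Pearson interval 45.5 to 50.6%, median 2119 UMIs per nucleus) and in 7.53% of rods (7.11 to 7.96%, median 1285 UMIs). The share was higher still in Muller glia (51.4%) and RGCs (49.2%), whose nuclei are deeper, with medians of 4319 and 9496 UMIs, and in astrocytes (49.0%). With each nucleus thinned to 1000 UMIs it was 30.1% in microglia, 22.1% in astrocytes, 18.6% in Muller glia, 7.71% in RGCs and 5.5% in rods. Stat3 was detected in 66.3% of astrocytes (60.6 to 71.7%) and 29.5% of rods, and Stat5b in 53.5% of BCs (52.6 to 54.5%), 56.5% of the deeper HCs and 2.05% of rods, or 18.8%, 8.66% and 1.35% after thinning. Stat6 was detected in 15.8% of pericytes (9.64 to 23.8%), 12.4% of microglia and 0.174% of BCs, and after thinning in 4.63% of pericytes and 4.69% of microglia. Stat5a was detected in 5.61% of microglia (4.52 to 6.88%). Stat4 was detected in 5.10% of the microglia cluster (4.06 to 6.31%) and in 0 of 294 astrocytes, which allows up to 1.25% of astrocytes with a UMI by the same interval and does not limit the share that holds the RNA. The shares of 0.0677% for Stat4 and 0.174% for Stat6 in BCs are of the size that stray RNA from other cells can give, and were not read as expression. These intervals cover counting error only.

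Genes with the most similar profile over the 11 types were ranked among 20144 others by Pearson's r of the mean log2(CPM + 1), a description over points that share the same libraries. Stat2 was followed most closely by Vrk2 (r = 0.975), Trim5 (0.970) and Gm44148 (0.957), and Stat6 by Il15ra (0.974), Anxa11 (0.949) and Usp25 (0.948). For Stat4 the closest were Haspin (0.993), Fgr (0.992) and BC035044 (0.989), for Stat3 Gm19522 (0.953), Gm49207 (0.942) and Dbi (0.940), for Stat5a Golga4 (0.923), Nuak2 (0.918) and Ppil2 (0.892), and for Stat5b Flt3l (0.859), Trio (0.838) and Nfkb1 (0.818). Among the members themselves the most similar pair was Stat2 and Stat6 (r = 0.867), and Stat3 and Stat5b were the least similar (r = -0.106).

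The bipolar cells formed 9 clusters, and Stat5a and Stat5b varied together among them. None of the members entered the clustering. Stat5b was highest in the cluster led by Neto1, with 350 ± 16.9 CPM (SD, n = 6 libraries), and in that led by Skor2, with 332 ± 22.1 CPM. It was lowest in the cluster led by 5033421B08Rik, with 96.4 ± 20.3 CPM. The libraries of the Neto1 cluster ranged from 331 to 373 CPM and those of the 5033421B08Rik cluster from 67.4 to 129 CPM, so the 2 sets did not overlap. Stat5a had 17.9 ± 8.02 CPM in the Neto1 cluster, 12.5 ± 2.93 CPM in the Skor2 cluster and 4.06 ± 2.54 CPM in the 5033421B08Rik cluster. Over the 9 clusters the r of the pair was 0.916, against 0.504 over 13 amacrine clusters, where Stat5b ran from 35.1 to 113 CPM. The large cluster led by Gm30725 and Prkca, a marker of rod bipolar cells, had 199 ± 20.0 CPM of Stat5b and 4.596 ± 1.60 CPM of Stat5a.

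**Figure D2:**
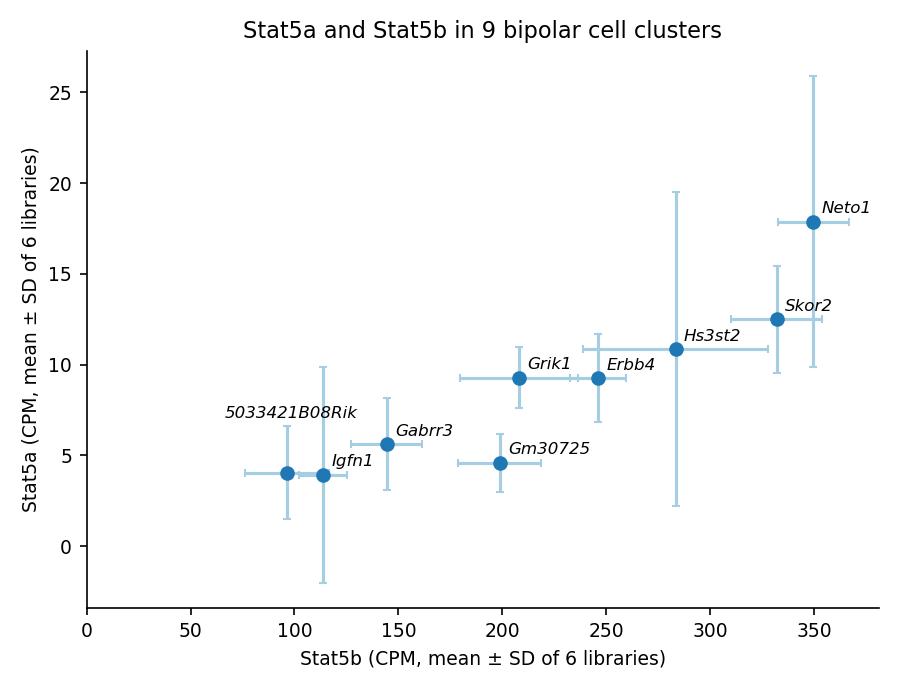
Stat5b (x axis) against Stat5a (y axis), both in CPM, in 9 bipolar cell clusters, each named by its leading gene; points are means and bars SDs over 6 libraries. Both genes are highest in the Neto1 cluster (350 and 17.9 CPM), and the 3 clusters with the least Stat5b hold 3.94 to 5.60 CPM of Stat5a.

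IL-27 and saline retinas were then compared, to ask whether the RNA of any STAT gene had changed 2 days after the cytokine. In the sum over all named types no member passed the threshold of an adjusted p of 0.05 in edgeR's quasi-likelihood test, against 0% of 20159 genes tested, and 2.92% of those genes had an unadjusted p under 0.05 (588 genes).

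Stat2 was at 112, 108 and 66.1 CPM in saline replicates 1, 2 and 6 and at 76.3, 123 and 149 CPM in IL-27 replicates 4, 5 and 10. The highest value was an IL-27 library and the lowest a saline one, but the groups overlapped. The log2 fold change was 0.27 ± 0.25 (SE), with an adjusted p of 1 in edgeR, and 0.33 with equal shares of the cell types. Single libraries moved it widely, to 0.07 without saline replicate 6, 0.08 without IL-27 replicate 10 and 0.49 without IL-27 replicate 4.

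Stat3 was at 154, 184 and 162 CPM in saline and at 149, 194 and 191 CPM in IL-27 libraries. IL-27 replicate 4 was the lowest of the 6, below all saline libraries, and the log2 fold change was 0.09 ± 0.11 (SE). Stat5b was at 111, 104 and 124 CPM in saline and at 106, 119 and 91.5 CPM in IL-27 libraries, with a log2 fold change of -0.11 ± 0.12. Stat5a (5.92, 5.97 and 4.72 CPM against 5.07, 7.21 and 5.91 CPM) and Stat6 (5.42, 5.79 and 3.98 CPM against 4.31, 6.28 and 3.42 CPM) overlapped as widely, with log2 fold changes of 0.12 ± 0.17 and -0.12 ± 0.25. Stat4 was at 2.05, 1.22 and 1.49 CPM in saline and 1.001, 2.28 and 1.36 CPM in IL-27 libraries, with a log2 fold change of -0.04 ± 0.33. That value was -0.27 without the microglia cluster's nuclei with T or NK markers, -0.40 with equal shares of the cell types and -0.36 without removal of doublets. The adjusted p of all 5 was 1 (edgeR).

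Within cell types, 42 of the 66 pairs of member and type passed the filter on low counts and were tested, Stat2 and Stat3 in all 11 types, Stat5b in 10, Stat5a in 5, Stat6 in 4 and Stat4 in microglia only. No pair had an adjusted p under 0.05 (edgeR), against 0.00737% of genes in rods, 0.00599% in ACs, 0.0285% in Muller glia, 0.022% in microglia and 0% in the other types. A single pair had an unadjusted p under 0.05, against 3.37% of genes in rods, 3.75% in cones, 3.09% in BCs, 3.06% in ACs, 4.96% in HCs, 3.45% in RGCs, 9.13% in Muller glia, 2.47% in pericytes, 3.35% in endothelial cells, 3.57% in astrocytes and 3.43% in microglia. The groups did not overlap for 2 of the 66 pairs, against 8.05% of genes in rods, 8.99% in cones, 8.81% in BCs, 8.62% in ACs, 9.86% in HCs, 9.07% in RGCs, 13.7% in Muller glia, 7.68% in pericytes, 8.44% in endothelial cells, 8.64% in astrocytes and 8.34% in microglia. Of the 42 log2 fold changes, 25 were above 0. Stat2 had a positive value in 8 of 11 types, from 0.20 in cones and RGCs to 1.04 in HCs, and a negative one in rods (-0.10), pericytes (-0.33) and endothelial cells (-0.46). Stat3 lay between -0.20 in endothelial cells and 0.30 in cones, and Stat5b between -0.35 in HCs and 0.21 in astrocytes.

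**Figure D3:**
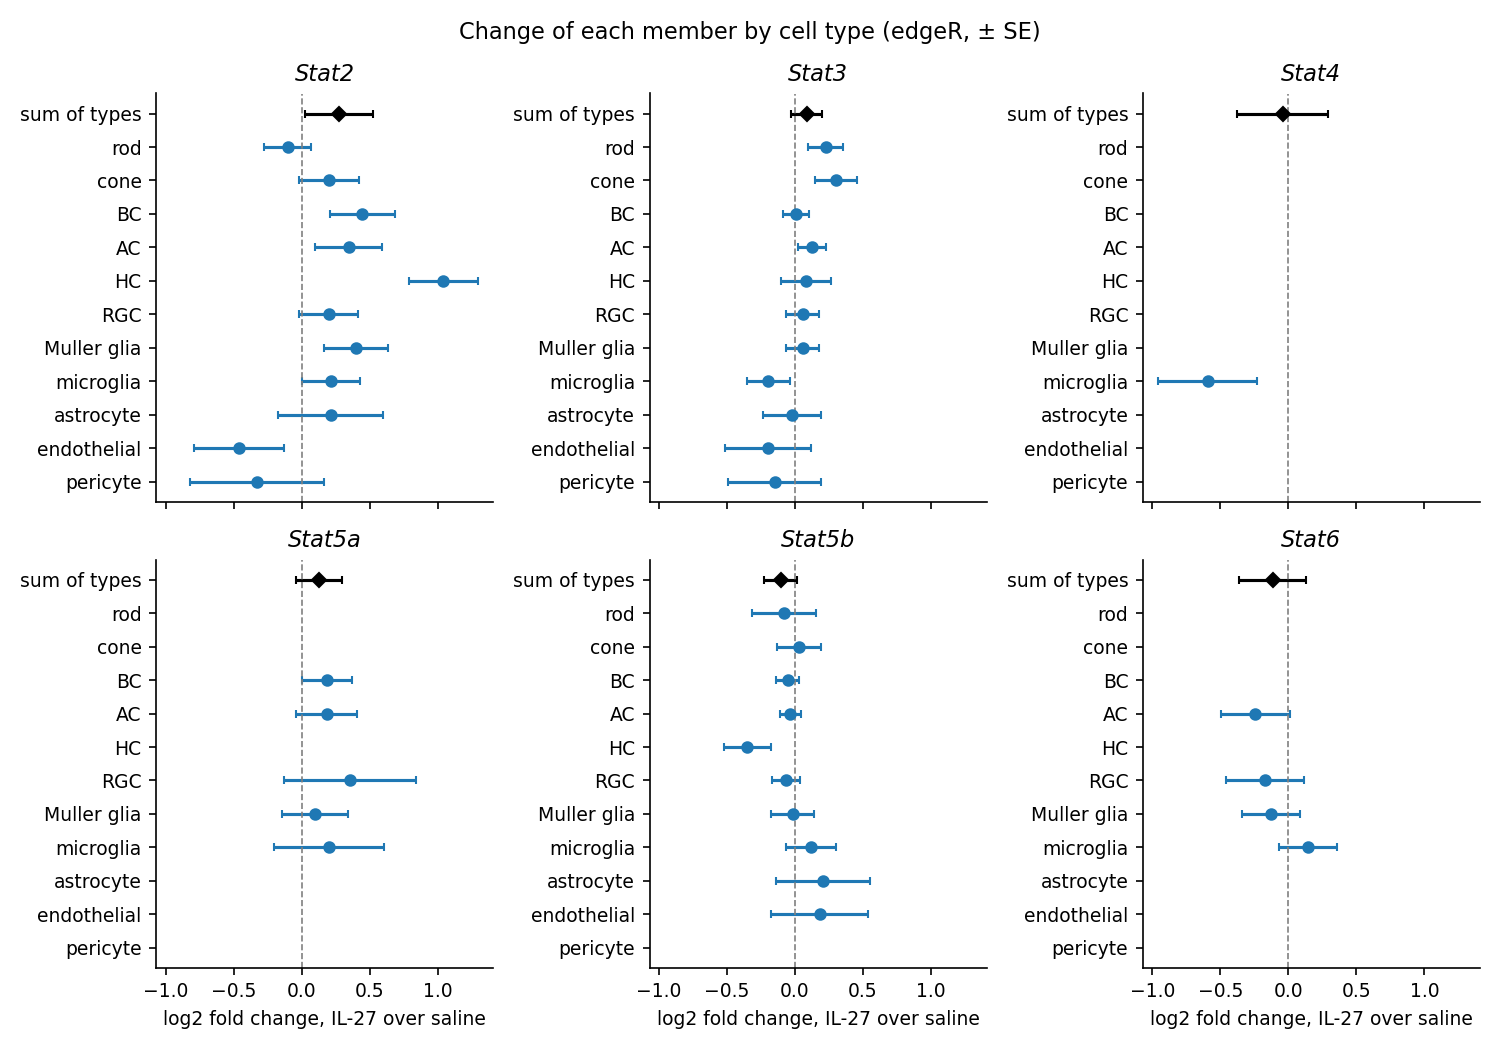
Log2 fold change of IL-27 over saline ± SE from edgeR (x axis) for each member in the sum of types (black diamonds) and in each type that could be tested (blue points). No value has an adjusted p under 0.05; the value farthest from 0 is Stat2 in HCs, 1.04 ± 0.26.

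The lowest p of a member was that of Stat2 in horizontal cells, the interneurons that give lateral feedback to photoreceptors. The saline libraries had 67.3, 79.9 and 47.3 CPM and the IL-27 libraries 93.4, 110 and 224 CPM, so that the groups did not overlap, as for 9.86% of genes tested in HCs. IL-27 replicate 10 stood far above the rest. The log2 fold change was 1.04 ± 0.26 (SE), with an adjusted p of 0.321 in edgeR and an unadjusted p under 0.05. The comparison rests on 471 UMIs in 485 nuclei, 32 to 115 per library, and without IL-27 replicate 10 the log2 fold change was 0.62 (adjusted p = 0.501, edgeR). Without IL-27 replicate 4 it was 1.29 (adjusted p = 0.0241, edgeR), and when genes with low counts stayed in the fit the adjusted p was 5.38e-05 (edgeR). Of all genes in HCs, the former fit called 10 higher and 2 lower of 7390, the latter 22 higher and 2 lower of 18991. In cones, Stat5a also separated the groups, with 2.36, 3.22 and 1.91 CPM in saline and 3.48, 4.82 and 4.23 CPM in IL-27 libraries, as 8.99% of tested cone genes did; it came from 31 UMIs in all and was below the filter for a test.

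In rods, the cells that degenerate first in rd10 mice, Stat3 was at 257, 312 and 256 CPM in saline and at 256, 387 and 324 CPM in IL-27 libraries. In cones it was at 206, 246 and 209 CPM against 210, 330 and 271 CPM. IL-27 replicates 5 and 10 were the highest in both cell types, followed by saline replicate 2, while IL-27 replicate 4 was the lowest library in rods and lay among the saline libraries in cones. The log2 fold changes were 0.22 ± 0.13 in rods (adjusted p = 0.9997, edgeR) and 0.30 ± 0.15 in cones (adjusted p = 0.9999, edgeR). Without IL-27 replicate 5 they were 0.07 and 0.12, and without IL-27 replicate 4 they were 0.36 and 0.45.

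In Muller glia, the radial glia of the retina, Stat2 was at 234, 220 and 139 CPM in saline and at 172, 279 and 322 CPM in IL-27 libraries, with a log2 fold change of 0.40 ± 0.24 (adjusted p = 0.701, edgeR). It was 0.20 without saline replicate 6, 0.23 without IL-27 replicate 10 and 0.61 without IL-27 replicate 4. Stat3 was at 209, 220 and 196 CPM against 196, 245 and 199 CPM (0.06 ± 0.12). Stat5b was at 66.5, 65.6 and 66.4 CPM in saline and 70.3, 73.4 and 48.9 CPM in IL-27 libraries, so that the saline libraries lay close together and the IL-27 libraries on both sides of them.

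The Fbln1-led Muller cluster, whose share differed between the libraries, carried less of Stat2, Stat3, Stat5a and Stat5b than the main Muller cluster. Stat2 was lower there in 6 of 6 libraries, at 113 CPM pooled against 240 CPM, and so were Stat3 (185 against 215 CPM) and Stat5a (1.54 against 10.2 CPM, from 4 and 228 UMIs). Stat5b was lower in 5 of 6 libraries, at 32.8 against 69.3 CPM. Stat6 had more in the Fbln1-led cluster in 4 of 6 libraries, at 17.7 against 13.9 CPM. Stat4 also had more there, with 11 of the 15 Stat4 UMIs of Muller glia in this cluster (4.24 against 0.179 CPM). Saline replicates 1 and 2 hold most of the cluster, and IL-27 replicates 4 and 5 have only 34954 and 28568 UMIs in it. With the cluster left out, the log2 fold change of Stat2 in Muller glia was 0.30 (adjusted p = 0.958, edgeR).

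A difference between cell types in the response was tested as the treatment by cell type interaction, Muller glia against rods and Muller glia against microglia. No member passed an adjusted p of 0.05 in edgeR in either test, against 0.13% of genes called for rods and 0.109% for microglia. The closest was Stat2, whose log2 fold change was 0.52 ± 0.13 (SE) higher in Muller glia than in rods, with an adjusted p of 0.163 (edgeR). The SE was larger in limma with library as a block, 0.52 ± 0.28 (adjusted p = 0.755, limma). The Muller glia counts include the Fbln1-led cluster, whose part in the difference was not tested. For the other members tested the differences from rods in edgeR lay between -0.16 and 0.71, and those from microglia between -0.23 and 0.28.

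The cluster named microglia, after the resident immune cells of the retina, gave the highest levels of 3 members, and all 6 could be tested there. It also carried listed markers of other macrophages: Ccr2 at 245, Mrc1 at 44.4, F13a1 at 37.1, Cd163 at 3.64 and Lyve1 at 1.30 CPM. What part such cells had in the values below was not tested. Stat2 was at 398, 424 and 214 CPM in saline and 382, 385 and 454 CPM in IL-27 libraries, saline replicate 6 standing alone at the bottom (log2 fold change 0.21 ± 0.21). Stat3 was at 225, 254 and 247 CPM against 186, 239 and 207 CPM (-0.20 ± 0.16), the only type other than the vascular ones and astrocytes in which its value was below 0. Stat6 was at 54.9, 54.3 and 46.9 CPM against 59.5, 61.01 and 52.3 CPM (0.15 ± 0.21), Stat5b at 142, 198 and 153 CPM against 193, 170 and 175 CPM (0.12 ± 0.18), and Stat5a at 26.7, 22.8 and 18.3 CPM against 26.6, 37.01 and 9.09 CPM (0.20 ± 0.41). Adjusted p was 0.999 for each (edgeR).

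Stat4 in the microglia cluster was at 95.7, 31.5 and 93.8 CPM in saline and at 37.6, 68.0 and 34.1 CPM in IL-27 libraries, with a log2 fold change of -0.59 ± 0.36 (adjusted p = 0.999, edgeR). Leaving out 1 library gave -0.34 (without saline replicate 1) to -1.04 (without IL-27 replicate 5), and -0.94 without saline replicate 2. The 239 UMIs came from few nuclei: 79 of 1550 held any, and 26 nuclei with 3 or more UMIs held 169 of them, with up to 19 in 1 nucleus. Of the 79, 39 had UMIs of 2 or more of the 7 T or NK cell markers Cd3e, Cd3d, Cd3g, Themis, Skap1, Ncr1 and Klrb1c. In all, 73 nuclei met that limit, of which saline replicates 1, 2 and 6 held 31, 0 and 2, and IL-27 replicates 4, 5 and 10 held 1, 34 and 5.

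In those 73 nuclei Stat4 was detected in 53.4% (95% exact interval 41.4 to 65.2%) at 556 CPM, against 2.71% (1.94 to 3.67%) at 42.9 CPM in the other 1477. The microglia markers ran in the opposite direction: the 10 listed ones summed to 306 CPM in the 73 nuclei, with Tmem119 and Trem2 at 0 UMIs, whereas Cx3cr1 alone had 514 CPM in the other nuclei. For the other members the intervals of the sets overlapped. Stat3 was detected in 32.9% and 36.8%, Stat5b in 30.1% and 31.3%, and Stat6 in 12.3% and 12.4% of the 2 sets, and Stat5a in 1.37% and 5.82%. Stat2 was detected in 35.6% (24.7 to 47.7%) and 48.7% (46.1 to 51.3%), at median depths of 1675 and 2141 UMIs.

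**Figure D4:**
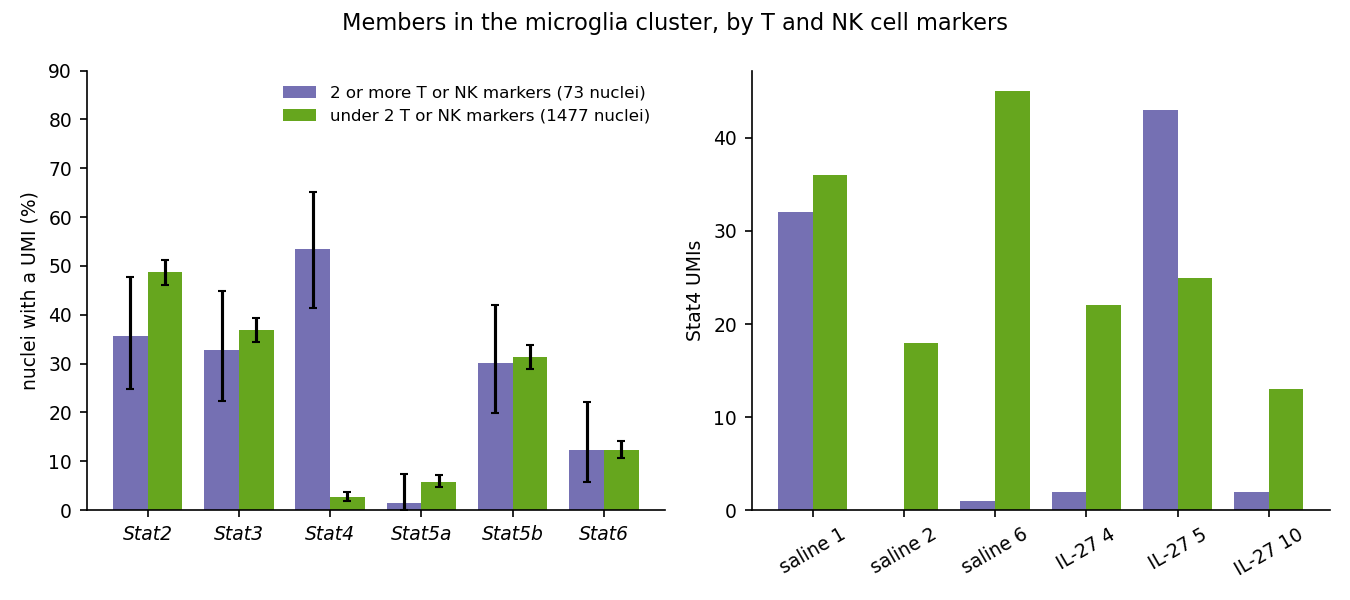
Left, share of nuclei with a UMI of each member (y axis, %) in the microglia cluster, for 73 nuclei with 2 or more T or NK markers (purple) and 1477 others (green), with 95% exact intervals; right, Stat4 UMIs per library in the same sets. Stat4 is detected in 53.4% of the first set and 2.71% of the second, and 75 of the 80 UMIs of the first set come from saline replicate 1 and IL-27 replicate 5.

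A second small set of nuclei held the rest of the Stat4 UMIs of the microglia cluster. In all, 40 nuclei with under 2 T or NK markers carried 159 Stat4 UMIs, and their microglia markers were also low: the 10 together had 1255 CPM against 4252 CPM in the 1437 nuclei with neither, Trem2 had 0 UMIs and Csf1r 47.5 against 407 CPM. Ccr7, a chemokine receptor of migrating dendritic cells and some T cells that was picked after its values were seen, had 285 CPM in the 40 nuclei against 4.72 CPM in the 1437. These nuclei were chosen by Stat4, so the contrast is a description. With the 73 nuclei left out, Stat4 was at 54.5, 31.5 and 92.2 CPM in saline and 34.8, 27.1 and 30.1 CPM in IL-27 libraries; 2 of the saline libraries were above all IL-27 libraries, and the log2 fold change was -0.94 (adjusted p = 1, edgeR). The 73 nuclei held 80 of the 325 Stat4 UMIs in the sum over types and 1 to 33 UMIs of each other member.

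The genes around the STATs were taken from 9 lists with 87 genes, all found in the tables. In the sum over types 81 were tested and none had an adjusted p under 0.05 (edgeR); 2 had an unadjusted p under 0.05 and were higher in IL-27 retinas, and 1 was lower, against 2.92% of all genes tested. By type, no listed gene passed either. The IL-27 receptor itself has 2 chains. Il27ra, the specific chain, had 23 UMIs in all (5, 0 and 2 in saline, 2, 10 and 4 in IL-27 libraries), too few for a test. Il6st, the shared gp130 chain, was at 50.1, 56.6 and 53.6 CPM in saline and 50.4, 55.1 and 54.3 CPM in IL-27 libraries, and was highest in pericytes with 185 ± 60.9 CPM.

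Among the kinases, 3 of 4 had log2 fold changes above 0, with a median of 0.05 against 0.00 over all genes. Jak3, the partner of the common gamma chain, was at 0.882, 1.13 and 0.814 CPM in saline and 1.21, 1.58 and 1.66 CPM in IL-27 libraries; the groups did not overlap, as for 7.78% of genes, and the log2 fold change was 0.65 ± 0.22 (adjusted p = 1, edgeR). Tyk2 (0.06 ± 0.08) and Jak2 (-0.07 ± 0.12) had overlapping groups. Of 16 feedback inhibitors 8 were above 0 and 8 below. Socs3, the main brake on gp130 signalling, was at 5.58, 6.62 and 5.16 CPM in saline and at 4.16, 8.44 and 12.9 CPM in IL-27 libraries (0.54 ± 0.33), the IL-27 libraries holding both the lowest and the 2 highest values. Socs1 was at 1.85 ± 0.244 against 2.52 ± 1.23 CPM (SD, n = 3) and Ptpn6, a phosphatase of immune cells, at 1.76 ± 0.24 against 2.12 ± 0.864 CPM.

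Of 21 receptors tested, 18 were above 0, with a median log2 fold change of 0.12 against -0.001 over all genes. The counts differed by type, with 7 of 14 above 0 in BCs, 8 of 17 in ACs and 8 of 14 in microglia. They were 12 of 15 in Muller glia and 9 of 12 in rods. Osmr and Il4ra are also in the list of STAT3 targets, so the lists are not independent. Il4ra, the receptor chain upstream of STAT6, which is also listed as a STAT3 and STAT6 target, was at 2.80, 2.94 and 3.12 CPM in saline and 3.82, 4.41 and 4.65 CPM in IL-27 libraries. The groups did not overlap, as for 7.78% of genes, and the log2 fold change was 0.53 ± 0.14 (adjusted p = 1, edgeR). Csf2rb, which signals through STAT5, was at 1.49 ± 0.416 against 2.17 ± 0.311 CPM. Ifngr2, a chain of the interferon-gamma receptor, was at 13.1 ± 0.574 against 15.3 ± 1.25 CPM. Both also had groups that did not overlap and an adjusted p of 1 in edgeR. These 3 receptors were named for the lowest p of the 21, a choice that favours groups without overlap. Of the 4 nuclear partners 2 were above 0. Irf9, the DNA-binding partner of STAT2, was at 53.2, 48.1 and 31.5 CPM in saline and 37.3, 52.5 and 67.1 CPM in IL-27 libraries, and the coactivators Ep300 and Crebbp were at 155 ± 1.90 against 144 ± 19.7 CPM and 288 ± 3.79 against 278 ± 36.6 CPM.

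The STAT3 targets had 11 of 11 tested genes above 0, with a median log2 fold change of 0.14, and in Muller glia 11 of 11 with a median of 0.39 against 0.005 over all genes there. Of the 11, 3 had an unadjusted p under 0.05 in Muller glia, as did 9.13% of all genes of that type. These values include the Fbln1-led cluster, which was uneven between libraries. Without it 4.89% of all genes of that type had an unadjusted p under 0.05 (edgeR). No listed gene was called in the fit without the cluster either. The values of this list in that fit are not given here, so the part of the cluster in them was not assessed. Osmr, the oncostatin M receptor, was at 146, 156 and 162 CPM in saline and 186, 221 and 191 CPM in IL-27 Muller glia (0.39 ± 0.11, adjusted p = 0.308, edgeR). Timp1, an inhibitor of metalloproteases, was at 3.03 ± 0.156 against 3.90 ± 0.857 CPM in the sum. In microglia 3 of 7 STAT3 targets were above 0, with a median of -0.11.

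The other target lists were mixed. Of 4 STAT4 targets tested 3 were above 0, led by Il18r1 (0.182 ± 0.128 against 0.429 ± 0.215 CPM), with Hopx at 6.64 ± 1.20 against 7.13 ± 1.30 CPM and Il12rb2 at 6.19 ± 0.27 against 6.56 ± 1.77 CPM. Of 6 STAT5 targets 4 were above 0, with a median of 0.00. Bcl2l1, which protects cells from death, was at 44.8 ± 1.83 against 48.1 ± 4.45 CPM, Bcl6 at 41.7 ± 0.40 against 45.7 ± 9.86 CPM and Pim1 at 8.004 ± 1.32 against 7.83 ± 0.284 CPM. In Muller glia the STAT5 target Igf1 was at 19.2, 28.5 and 12.2 CPM in saline and 5.14, 2.60 and 11.8 CPM in IL-27 libraries (-1.64 ± 0.44, adjusted p = 0.280, edgeR). The highest Igf1 and the highest share of the Fbln1 cluster were both in saline replicate 2. The lowest of both were in IL-27 replicate 5. The Igf1 values of a fit without that cluster are not given here, and its part in them was not assessed. Of 4 STAT6 targets 2 were above 0. Mrc1, a macrophage receptor, was at 1.22, 1.93 and 1.21 CPM in saline and 0.941, 0.554 and 1.06 CPM in IL-27 libraries (-0.78 ± 0.30, adjusted p = 1, edgeR). Within the microglia cluster it was at 52.1, 99.9 and 67.3 against 34.5, 14.0 and 18.2 CPM (-1.74 ± 0.36, adjusted p = 0.411, edgeR, or 2.05e-05 with no filter on low counts). That unfiltered fit called 12 genes higher and 32 lower of 20847. Ccl17 was at 0.383 ± 0.141 against 0.25 ± 0.0951 CPM.

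The interferon targets of STAT2 with IRF9 had values on 1 side. All 18 were tested and all 18 had a log2 fold change above 0, with a median of 0.29 against 0.00 over all genes. None had an unadjusted p under 0.05, and the libraries within each group differed widely. Rsad2, the antiviral enzyme viperin, was at 25.4, 34.5 and 11.4 CPM in saline and at 15.8, 36.7 and 57.3 CPM in IL-27 libraries (0.60 ± 0.47, adjusted p = 1, edgeR). Zbp1 (3.63 ± 1.45 against 5.10 ± 1.84 CPM) and Bst2 (33.2 ± 11.1 against 43.6 ± 14.4 CPM) were spread in the same way. In microglia 7 of the 18 were above 0 and 11 below, with a median of -0.03, whereas in Muller glia all 18 were above 0 with a median of 0.38. The Muller glia values include the uneven Fbln1-led cluster. Values for this list from a fit without the cluster are not given here, so its part was not assessed.

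Across the libraries the level of Stat2 followed that of this list. The 18 genes summed to 529, 518 and 258 CPM in saline replicates 1, 2 and 6 and to 325, 577 and 717 CPM in IL-27 replicates 4, 5 and 10, the same order of libraries as for Stat2. Over the 6 libraries Pearson's r of the log2 values was 0.996 (exact permutation p = 0.00139, adjusted over 6 relations of members with their target lists p = 0.00833) and Spearman's rank correlation was 1 (exact permutation p = 0.00278, adjusted p = 0.0167). Without the 2 libraries farthest from the median of Stat2, saline replicate 6 and IL-27 replicate 4, r was 0.996. Of the 18 targets, 17 were lowest in saline replicate 6, Ifit2 being lowest in IL-27 replicate 4, and 17 were highest in IL-27 replicate 10, Oas1a being highest in IL-27 replicate 5. Usp18, the deubiquitinase-like protein that restrains interferon signalling, had 48.1, 45.3 and 20.2 CPM in saline and 26.7, 52.0 and 71.8 CPM in IL-27 libraries. The list and the relation were chosen with earlier results of these data known. The p-values therefore describe the relation and are no independent test of it. How many other genes follow the list as closely is not given here.

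The 2 libraries with high Xist, saline replicate 2 and IL-27 replicate 5, were neither the highest nor the lowest of the 6, and no correlation was computed within either side of that split, which hold 2 and 4 libraries. The values of r without the 2 farthest libraries also rest on 4 libraries and only show how far r depends on those left out. IL-27 replicate 10, the highest in Stat2, had the fewest UMIs (36678332), and the part of depth in the sum was not tested. The relation of Stat2 with the list was also computed within each of the 11 types, after the pattern over libraries was seen. The types come from the same 6 libraries and make up the sum. Their values therefore describe the relation by type, are given without p-values and are no separate test of it. What part stray RNA shared within a library had was not tested. The Muller glia values include the Fbln1-led cluster and the microglia values the nuclei with T or NK markers, both uneven between libraries, and their part in the relation was not tested. Pearson's r was 0.994 in Muller glia, 0.987 in BCs, 0.982 in ACs, 0.957 in RGCs, 0.913 in cones and 0.905 in microglia. In rods it was 0.864 and fell to 0.107 without the 2 farthest libraries, so that it rests on those. In astrocytes it was 0.872 and likewise fell to 0.197. The lowest values were those of HCs (0.841), pericytes (0.694) and endothelial cells (0.621).

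**Figure D5:**
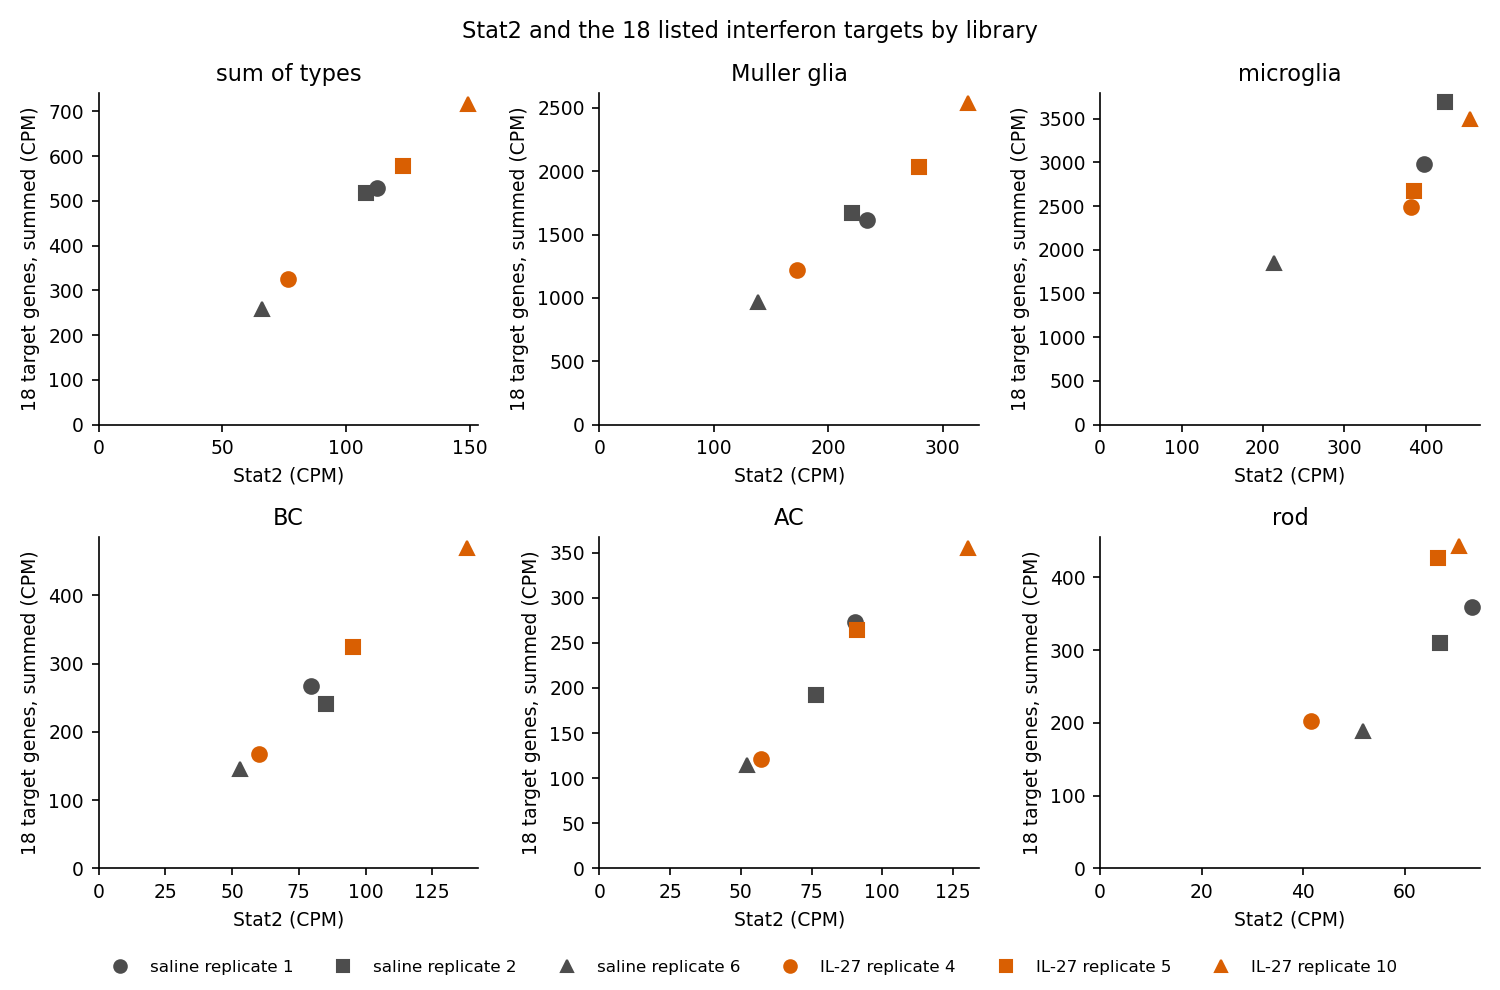
Stat2 (x axis, CPM) against the summed level of 18 listed interferon targets (y axis, CPM), 1 point per library, in the sum of types and in 5 cell types. The points of both groups lie along 1 line in the sum (r = 0.996), with saline replicate 6 at the bottom and IL-27 replicate 10 at the top, and the rods scatter more (r = 0.864).

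None of the other members had an adjusted p under 0.05 with its targets. Their lists were likewise chosen with earlier results of these data known. Stat3 and its 12 targets gave r = 0.869 (exact permutation p = 0.0278, adjusted p = 0.0833) and a Spearman's rank correlation of 0.829 (exact permutation p = 0.0583, adjusted p = 0.175). The list summed to 154, 200 and 171 CPM in saline and 151, 194 and 257 CPM in IL-27 libraries, and r was 0.943 without the 2 farthest libraries. For Stat5a r was 0.547, for Stat5b -0.065, for Stat4 -0.040 and for Stat6 -0.564, with adjusted p of at least 0.406 (exact permutation test). At 6 libraries such values leave a relation of middling strength undetectable.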

How the data were processed

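Nuclei from frozen rd10 retinas were sequenced with a 10x Genomics 3′ kit. The deposited count matrices hold raw UMI counts per gene and barcode, which the authors made with Cell Ranger (9.0.1 per the labels, 8.0.1 per the matrix header) against a 10x Genomics mouse reference whose build is not given in the sources used here; 99.6% of gene identifiers matched GENCODE M21. Barcodes needed over 500 UMIs, 200 or more genes and a mitochondrial share below 5%, and 4015 doublets were removed by Scrublet score at an expected 8%. Clusters (2000 variable genes without the members and listed genes, 25 components, Louvain resolution 0.25) were named when at least 3 markers were present; 3 of 35 clusters, 1727 nuclei, stayed unnamed. The cell types are therefore rebuilt and may differ from the study's. Nuclei whose log2 total lay further than 2 MADs from the median over all retained nuclei were dropped, counts were summed per library, and edgeR 4.0.16 (TMM, filterByExpr minimum of 10, quasi-likelihood test, Benjamini-Hochberg over all genes) compared the groups, with DESeq2 1.42.0 and limma 3.58.1 as alternatives. CPM were computed from the deposited counts, per library and type. Simulated counts with known changes were used to test the fits. Members, lists and tests were chosen with earlier results of these data known. The genes named from each list are the 3 with the lowest p in the sum and any with an adjusted p under 0.05 (none); those given for single cell types, the IL-27 receptor chains, Usp18 and Ccr7 were added after their values were seen. For each member the 3 genes with the highest r over cell types are named.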

Additional observations from a re-analysis of the deposited data

How the results depend on the processing

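No paired analysis was possible because the saline and IL-27 libraries share no replicate number. Of the log2 fold changes of members, 13 were followed under the alternatives, those in the sum and some by type. The latter were Stat2 in BCs, HCs and Muller glia, Stat3 in rods and cones, Stat4 in microglia and Stat5b in HCs. Of 221 values, 212 kept their direction and side of the threshold, 7 turned and 2 passed it. Fits by type outside these 13 were not counted. Some of them changed sign, as Stat2 did in rods (-0.263 to 0.092), and others kept it, as Stat6 did in microglia (0.089 to 0.223). In the sum, the log2 fold change of Stat4 turned to 0.081 with nuclei under 1% mitochondrial counts; leaving out a library gave -0.453 to 0.190, above 0 without IL-27 replicate 10 (0.061), IL-27 replicate 4 (0.190) or saline replicate 1 (0.185). Leaving out a library gave 0.072 to 0.493 for Stat2, 0.007 to 0.193 for Stat3, -0.031 (without IL-27 replicate 5) to 0.233 for Stat5a, -0.213 to 0.007 (without IL-27 replicate 10) for Stat5b and -0.401 to 0.080 (without IL-27 replicate 10) for Stat6. Members called by cell type went from 0 to 1, Stat2 in HCs, with no filter on low counts, and ranged from 0 to 1 over the fits that leave out a library. Listed genes called by cell type went from 0 to 1 with DESeq2 (Igf1 in Muller glia), to 7 with no filter (higher: Herc6 and Oasl2 in BCs, Herc6 in HCs and Rsad2 in rods; lower: Igf1 in Muller glia, Junb in RGCs and Mrc1 in microglia) and ranged from 0 to 2 over the fits that leave out a library: Igf1 and Osmr in Muller glia without IL-27 replicate 10, and Ptpn1 in HCs without IL-27 replicate 4. Those fits called other genes too. With no filter, genes called higher and lower were 63 and 252 of 24098 in Muller glia, 15 and 23 of 25050 in BCs and 22 and 2 of 18991 in HCs. They were 27 and 18 of 24276 in rods, 6 and 12 of 23891 in RGCs and 12 and 32 of 20847 in microglia. DESeq2 called 27 and 68 of 17087 in Muller glia. Without IL-27 replicate 10, 107 and 313 of 14318 were called in Muller glia. Without IL-27 replicate 4, 10 and 2 of 7390 were called in HCs. The causes were not tested. In the sum, no member and no listed gene was called under any of the 19 alternatives, DESeq2 included. The 2 alternatives that leave out the Fbln1 cluster or the nuclei with T or NK markers were chosen after seeing the data.

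The cell type with the highest value was the same for 6 of 6 members when each library, or the limit on nuclei totals, was left out, and for 5 of 6 by share of thinned nuclei, where Stat6 was at 4.69% in microglia and 4.63% in pericytes. Thinning each nucleus to 1000 UMIs lowered the shares of nuclei with a UMI to 30.1% for Stat2, 3.60% for Stat4 and 2.65% for Stat5a in microglia, 29.0% for Stat3 in astrocytes, 18.8% for Stat5b in BCs and 4.63% for Stat6 in pericytes. With Spearman's rank correlation in place of Pearson's r, 6 of the 18 most similar genes stayed among the 3 named for their member.

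With 3 libraries a group and an SE of 0.25 for Stat2 in the sum, changes of the size seen between libraries of 1 group could not be detected. Stat4, Stat5a and Stat6 had too few counts for a test in 10, 6 and 7 of the 11 types.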
